A study of Mus musculus with 8 samples.

Results

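Copines are a family of cytosolic proteins that bind phospholipid membranes when calcium rises. Each has a pair of C2 domains, which hold calcium and lipid, followed by a domain related to the von Willebrand factor A domain, the fold that integrins use to bind ligands. In other tissues copines have been tied to membrane traffic, cell migration and signalling from growth factor receptors.

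The copine genes Cpne1, Cpne2, Cpne3, Cpne5, Cpne7 and Cpne8 were described, 6 genes of the 18395 in the count table, taken by gene symbol. The set was selected on the genotype comparison itself: Cpne7 was chosen by its log2 fold change, which was the largest among the genes called higher in KO when 2 libraries were left out, and the others were added as its relatives. The differences between genotypes are therefore given for these genes as descriptions, with no test. The remaining copines, Cpne4, Cpne6 and Cpne9, are given beside them.

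The study sequenced mouse adipose RNA in 8 libraries. The 4 labelled WT are controls, and the 4 labelled KO come from mice with Kindlin-2 knocked out in brown adipocytes. Kindlin-2 is the integrin-binding focal adhesion protein encoded by Fermt2. All mice, controls included, had been held at 4 °C for 6 hours. The labels used here give no strain, age, sex, depot or Cre driver and do not say whether replicates were separate animals, so the spread is that between these samples.

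Total counts ranged from 33672272 to 43253559 per library. Fermt2 lay at 201 to 244 CPM (counts relative to the library total, with edgeR's TMM scaling) in WT and at 132 to 192 CPM in KO, with no overlap. Markers of brown adipocytes summed to between 9600 and 12100 CPM in WT and between 5810 and 9490 CPM in KO (11 genes, all tested). Ucp1 alone gave 5082 to 6576 CPM in WT and 1792 to 4301 CPM in KO. The groups did not overlap for Ucp1, Elovl3 and Otop1, and they overlapped for the other genes of the list. A pair of libraries stood apart: WT replicate 3 held 41690 CPM of 11 skeletal muscle markers, against 33.6 to 313 CPM in the other libraries, and KO replicate 2 held 227 CPM of 11 T and NK cell markers, against 4.62 to 43.7 CPM. Values are therefore given with all 8 libraries and with the 6 that remain without these.

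Of the 6 genes, 4 passed the filter on low counts (Cpne2, Cpne3, Cpne7 and Cpne8). Cpne1 and Cpne5 did not, and Cpne5 passed when only 6 libraries were used. Of the 3 other copines, Cpne9 passed and Cpne4 and Cpne6 did not.

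Copines resemble one another, so the coding sequences were compared first to see whether reads of Cpne7 could be taken for another copine. Sequences were those of the longest coding transcript of each gene in GENCODE M21 (build GRCm38). Over the aligned coding bases Cpne7 was 71.0% identical to Cpne4, 69.5% to Cpne6, 65.5% to Cpne5, 63.8% to Cpne1, 63.0% to Cpne2 and to Cpne9, 61.1% to Cpne3 and 60.7% to Cpne8. The longest run of identical bases between Cpne7 and any other copine was 21 bases, shared with Cpne6. No window of 50 bases in any of the 9 transcripts occurred in a transcript of another copine (0 of 2349 windows in Cpne7). The 90 coding bases where Cpne7 was most like another copine are printed because confusion would be likeliest there. They are coding positions 874 to 963 of Cpne7, in exons 9 and 10, with the aligned bases of its nearest relatives, Cpne6 and Cpne4, and of the 3 other copines that passed the filter and belong to the set. Letters are lower case where they equal Cpne7 and capital where they differ.
Cpne7: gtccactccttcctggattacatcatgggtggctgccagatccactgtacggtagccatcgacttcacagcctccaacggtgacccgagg
Cpne6: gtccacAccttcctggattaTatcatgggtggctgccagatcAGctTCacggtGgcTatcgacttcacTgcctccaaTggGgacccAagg
Cpne4: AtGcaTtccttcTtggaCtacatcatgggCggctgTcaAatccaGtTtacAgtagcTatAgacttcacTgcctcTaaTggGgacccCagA
Cpne3: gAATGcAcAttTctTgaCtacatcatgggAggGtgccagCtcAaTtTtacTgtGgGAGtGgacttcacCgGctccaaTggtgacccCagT
Cpne2: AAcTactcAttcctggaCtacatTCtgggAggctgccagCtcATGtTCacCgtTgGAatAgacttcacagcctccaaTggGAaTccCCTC
Cpne8: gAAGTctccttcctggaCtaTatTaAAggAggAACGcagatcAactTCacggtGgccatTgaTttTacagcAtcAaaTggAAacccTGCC
Even here Cpne6, the copine that set this stretch, differed from Cpne7 at 12 of 90 bases. At the same Cpne7 positions Cpne4 differed at 19, Cpne3 at 26, Cpne2 at 27 and Cpne8 at 30. For those genes this need not be the stretch most like Cpne7. Cpne6 and Cpne4, the closest copies, had at most 13 and 2 counts in any library, against 92 to 181 for Cpne7 in KO.

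Cpne7 (ENSMUSG00000034796, on the plus strand of chromosome 8) encodes copine 7, which is best known as a factor from dental epithelium that promotes odontoblast differentiation. It was low in cold-exposed control tissue, with 11, 8, 15 and 27 counts in WT replicates 1 to 4, and had 181, 105, 92 and 149 counts in KO replicates 1 to 4. As TMM-scaled levels these were 0.330, 0.251, 0.502 and 0.678 CPM in WT and 4.17, 2.35, 2.46 and 3.67 CPM in KO. Every KO library lay above every WT library, and the lowest KO library held 3.46 times the level of the highest WT library.

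WT averaged 0.440 ± 0.190 and KO 3.16 ± 0.902 CPM (SD, n = 4), with a ratio of 7.18. The log2 fold change from edgeR was 2.83 ± 0.40 (SE), and 3.003 ± 0.44 with 6 libraries. KO replicate 2, which stood apart by its T and NK cell markers, had the lowest Cpne7 level of the KO group, and WT replicate 3, with its muscle markers, lay inside the WT range. With 1 library left out at a time the log2 fold change ranged from 2.64 to 3.12. The KO libraries fell into a higher pair, replicates 1 and 4, and a lower pair, replicates 2 and 3, and in WT replicate 4 held the most Cpne7.

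By the size of its log2 fold change with all libraries Cpne7 was 27th of 13901 tested genes, and 14th of the 806 genes whose KO libraries all lay above all WT libraries. The genes above it in that shorter order include several of NK and T cells, such as Klrb1c, Gzma and Ncr1. Among the 253 genes called higher with 6 libraries it was the first, with Dgkb, a diacylglycerol kinase, next at 2.69 ± 0.55 and BB365896 after it at 2.63 ± 0.47. These ranks describe how the gene was chosen.

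With all libraries and an adjusted p threshold of 0.05, 0 of 13901 genes (0%) were called by edgeR, so no copine was. At an unadjusted p under 0.05 it gave 2993 genes, limma-voom called 0 (0% called) and DESeq2 called 1113 (8.71% of the 12776 genes with an adjusted p), Cpne7 the 1 copine among them. With 6 libraries edgeR called 461 genes (3.32%), 253 of them higher in KO (1.82%) and 208 lower (1.5%), again with Cpne7 as the 1 copine. Among all tested genes, 13.4% had groups that did not overlap, 5.8% with KO above and 7.56% with KO below. Cpne7 was the 1 copine of the 5 tested whose groups did not overlap. Since the contrast chose the genes, nothing is read from these counts.

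**Figure D1:**
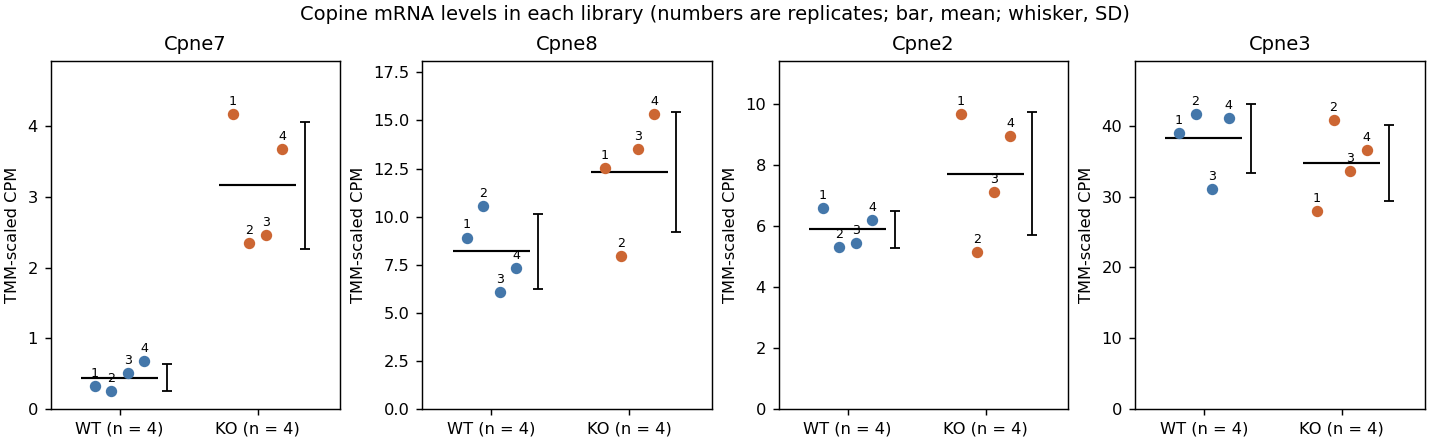
TMM-scaled CPM of Cpne7, Cpne8, Cpne2 and Cpne3 in each library, with WT in blue and KO in orange, replicate numbers beside the points, the mean as a bar and the SD as a whisker (n = 4). For Cpne7 the 4 KO libraries lie between 2.35 and 4.17 CPM and the WT libraries at or under 0.678 CPM, while for Cpne8 and Cpne2 KO replicate 2 lies among or under the WT libraries.

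Cpne8 (ENSMUSG00000052560, chromosome 15, minus strand) encodes copine 8. It measured 8.91, 10.5, 6.06 and 7.31 CPM in WT replicates 1 to 4 and 12.5, 7.98, 13.5 and 15.3 CPM in KO replicates 1 to 4. KO replicates 1, 3 and 4 lay above all WT libraries, and KO replicate 2 lay inside the WT range. The means were 8.20 ± 1.94 and 12.3 ± 3.13 CPM (SD, n = 4), with a log2 fold change of 0.59 ± 0.24 (SE). With 6 libraries the means were 8.92 ± 1.61 and 13.8 ± 1.42 CPM (SD, n = 3) and the log2 fold change 0.63 ± 0.18.

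Cpne2 (ENSMUSG00000034361), on the same chromosome and strand as Cpne7, ranked the KO libraries as Cpne7 did, with replicate 1 highest and replicate 2 lowest. Its levels were 6.60, 5.33, 5.46 and 6.21 CPM in WT and 9.68, 5.14, 7.14 and 8.95 CPM in KO. KO replicate 2 was the lowest of all 8 libraries, and the other 3 KO libraries lay above every WT library. Group means were 5.90 ± 0.609 and 7.73 ± 2.03 CPM (SD, n = 4), and the difference on the log2 scale was 0.39 ± 0.22 (SE) with all libraries and 0.51 ± 0.20 with 6.

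Cpne3 (ENSMUSG00000028228, chromosome 4, minus strand), whose protein has been reported to bind the receptor ErbB2 and to promote cell migration, was the most abundant copine in reads. It measured 39.0, 41.6, 31.1 and 41.1 CPM in WT and 27.95, 40.8, 33.5 and 36.5 CPM in KO. The groups overlapped over most of their range, with means of 38.2 ± 4.87 and 34.7 ± 5.41 CPM (SD, n = 4). Its log2 fold change was -0.14 ± 0.14 (SE), and -0.31 ± 0.13 with 6 libraries, WT replicate 3 being the lowest WT library and KO replicate 2 the highest KO library. With scaling by total counts alone the sign turned, to 0.11. That scaling moved the median log2 fold change of all tested genes from 0.00362 to 0.264, so Cpne3 still lay under that median.

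Cpne9 (ENSMUSG00000030270, chromosome 6), which is not in the set, measured 1.35, 2.22, 0.703 and 0.603 CPM in WT and 1.71, 1.23, 1.23 and 0.715 CPM in KO, so its groups overlapped throughout. The log2 fold change was 0.00 ± 0.48 (SE), and leaving out 1 library at a time moved it between -0.23 and 0.46.

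**Figure D2:**
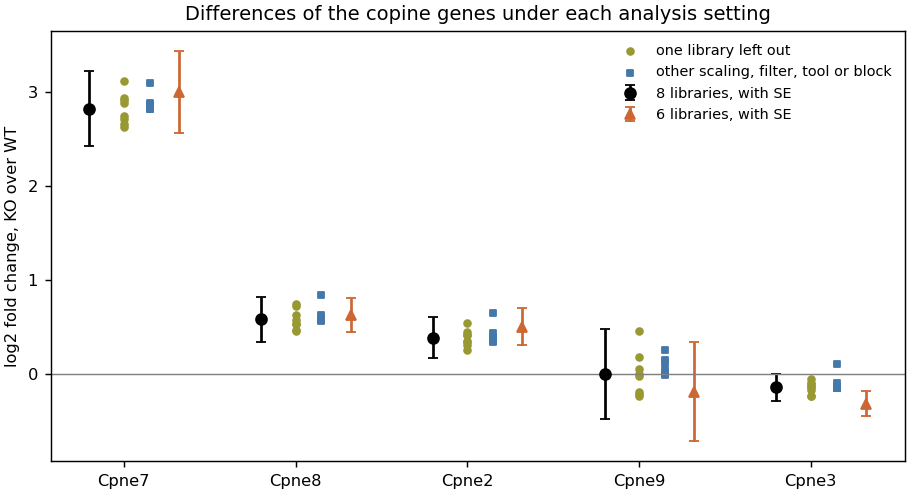
Log2 fold change of KO over WT for the 5 copines that passed the filter, with all 8 libraries and with 6 (± SE), with 1 library left out at a time, and under the other scalings, filters, tools and the replicate block. Cpne7 stays between 2.64 and 3.12 and Cpne8 between 0.47 and 0.84, whereas Cpne9 and Cpne3 have settings on both sides of 0.

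The 4 remaining copines gave few reads. Cpne5 (ENSMUSG00000024008, chromosome 17), a copine of neural tissue, had 14, 3, 8 and 6 counts in WT and 8, 5, 11 and 13 in KO, and its groups overlapped. Cpne6 (ENSMUSG00000022212), the neuronal copine of dendritic spines, had 13 counts over the WT libraries and 21 over the KO libraries, 13 of them in KO replicate 1. Cpne4 (ENSMUSG00000032564) had 0 counts in 7 libraries and 2 in KO replicate 2. A count of 0 here allows a level of up to about 0.0797 CPM, taking 3 counts at the mean library size and counting error only.

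Cpne1 (ENSMUSG00000074643, chromosome 2, minus strand) had 2, 5, 3 and 2 counts in WT and 4, 3, 2 and 4 in KO, and these values are uncertain. In GENCODE M21 84.1% of its exon bases also belong to other genes on the same strand, 3755 of 4507 bases to the protein-coding gene Gm28036 and 404 to Rbm12. No row of the count table was matched to Gm28036. Rbm12, an RNA-binding protein gene, measured 12.1 to 20.0 CPM in KO and 11.1 to 16.1 CPM in WT. How reads in shared exons were counted is not given in the sources used here, so the Cpne1 counts cannot be read as its expression. None of the other copines shared more than 1.3% of its exon bases with a gene on its strand, and in Cpne7 those 67 bases were Mir7080.

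Levels of different copines were compared per kilobase of the longest coding transcript. In WT the order was Cpne3 (6.77 ± 0.862 CPM per kilobase), Cpne2 (2.52 ± 0.260), Cpne8 (2.44 ± 0.576), Cpne9 (0.439 ± 0.269) and Cpne7 (0.184 ± 0.0793; SD, n = 4). Cpne2 and Cpne8 changed places between WT libraries and did not differ beyond their spread, and Cpne9 was ahead of Cpne7 in 3 of the 4 WT libraries.

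In KO the order was Cpne3 (6.15 ± 0.957 CPM per kilobase), Cpne8 (3.67 ± 0.929), Cpne2 (3.30 ± 0.866), Cpne7 (1.32 ± 0.376) and Cpne9 (0.439 ± 0.146; SD, n = 4). Cpne7 was the fourth copine in each of the 4 KO libraries and passed Cpne9 in all of them. It supplied 8.72% ± 1.97 of the summed copine level per kilobase in KO, with a range of 7.06% to 11.3%, against 1.52% ± 0.728 in WT, with a range of 0.757% to 2.23% (SD, n = 4). These shares depend on the length used: per kilobase of coding sequence alone they were 5.20% ± 1.52 in KO and 0.811% ± 0.383 in WT. Cpne3 supplied 54.3% ± 2.09 in WT and 41.5% ± 9.30 in KO, where KO replicate 2 alone, at 54.3%, reached the WT range. Even at its KO level Cpne7 therefore remained under Cpne2, Cpne8 and Cpne3 in each library. Cpne1 enters these sums with its uncertain counts, at 0.213% of the sum in WT.

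**Figure D3:**
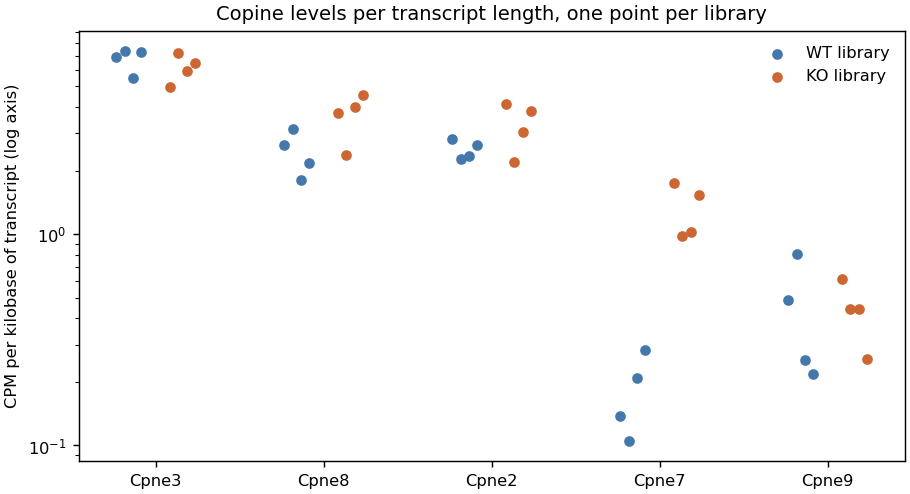
CPM per kilobase of transcript, on a log axis, for the 5 copines that passed the filter, one point per library (4 WT in blue, 4 KO in orange). Cpne7 has 0.105 to 0.283 CPM per kilobase in WT and 0.978 to 1.74 in KO, and Cpne3 is the highest copine in each of the 8 libraries.

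The genes next to Cpne7 on chromosome 8 were read to see whether the difference extended along the chromosome (gene order from RefSeq, GRCm38.p6). Of the 10 nearest genes in the count table, 5 on each side, 9 were tested and 0 were called by edgeR (0% of all genes called). Sult5a1, a sulfotransferase gene and the next gene after Cpne7, measured 1.47 to 3.15 CPM in WT and 2.83 to 5.74 CPM in KO, 0.92 ± 0.34 higher on the log2 scale (SE; adjusted p = 0.180 by edgeR). The groups of Sult5a1 overlapped. Rpl13, a ribosomal protein gene and the nearest counted gene on the other side, differed by 0.15 ± 0.12 (adjusted p = 0.450). Dpep1, a dipeptidase gene after Sult5a1, differed by 0.17 ± 0.14 (adjusted p = 0.498) and Chmp1a, an endosomal sorting gene, by -0.02 ± 0.09 (adjusted p = 0.922). Further before Cpne7, Ankrd11 lay higher in each KO library (0.24 ± 0.11, adjusted p = 0.244) and Acsf3, which activates malonate in mitochondria, lay lower in each (-0.46 ± 0.14, adjusted p = 0.132). None of the 9 lay as far from 0 as Cpne7, a comparison that the choice of Cpne7 for its size largely fixes.

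**Figure D4:**
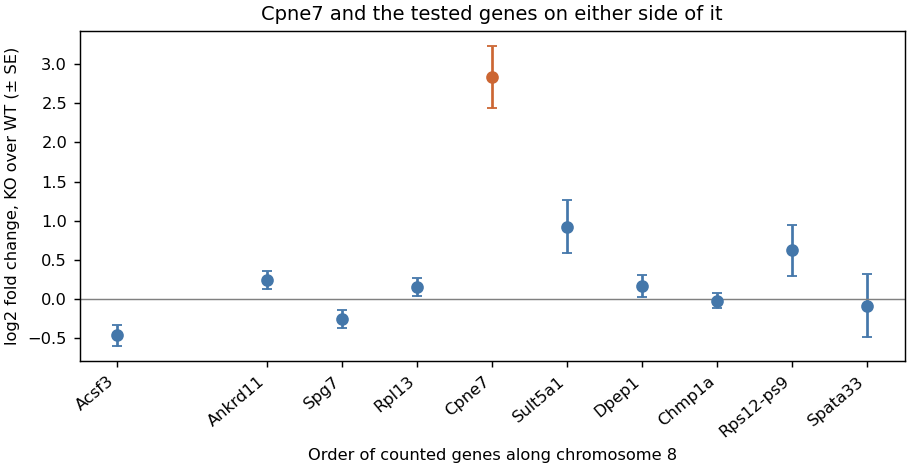
Log2 fold change of KO over WT (± SE, edgeR, 8 libraries) for Cpne7 in orange and the tested genes on either side of it in blue, in their order along chromosome 8 and not to distance. The gap is Cdh15, which was not tested; Cpne7 stands at 2.83, and its neighbours lie between -0.46 and 0.92.

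Adipose tissue holds several cell types, and in bulk RNA fewer cells of a type and less RNA per cell cannot be told apart. Endothelial markers, 11 of 12 of them higher in KO, summed to 2232, 2193, 1670 and 1993 CPM in WT and to 3576, 2044, 2712 and 3489 CPM in KO. KO replicate 2 thus lay inside the WT range and the other 3 KO libraries above it, the same arrangement as for Cpne8, and for Cpne2 except that KO replicate 2 fell below its WT range.

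Per 1000 CPM of summed endothelial markers, Cpne8 measured 3.99, 4.80, 3.63 and 3.67 CPM in WT and 3.51, 3.90, 4.98 and 4.39 CPM in KO, with means of 4.02 ± 0.543 and 4.20 ± 0.636 (SD, n = 4), a ratio of 1.04. On the same scale Cpne2 had means of 2.94 ± 0.365 in WT and 2.60 ± 0.0836 in KO, a ratio of 0.885, and overlapping groups. Both genes had overlapping groups before this scaling too, and the part of endothelial cells in their values was not tested. Cpne7 had 0.114 to 0.340 CPM in WT and 0.907 to 1.17 CPM in KO per 1000 endothelial CPM, a ratio of means of 4.73 with no overlap. Its groups did not overlap before the scaling either, and the gene was chosen for that difference.

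**Figure D5:**
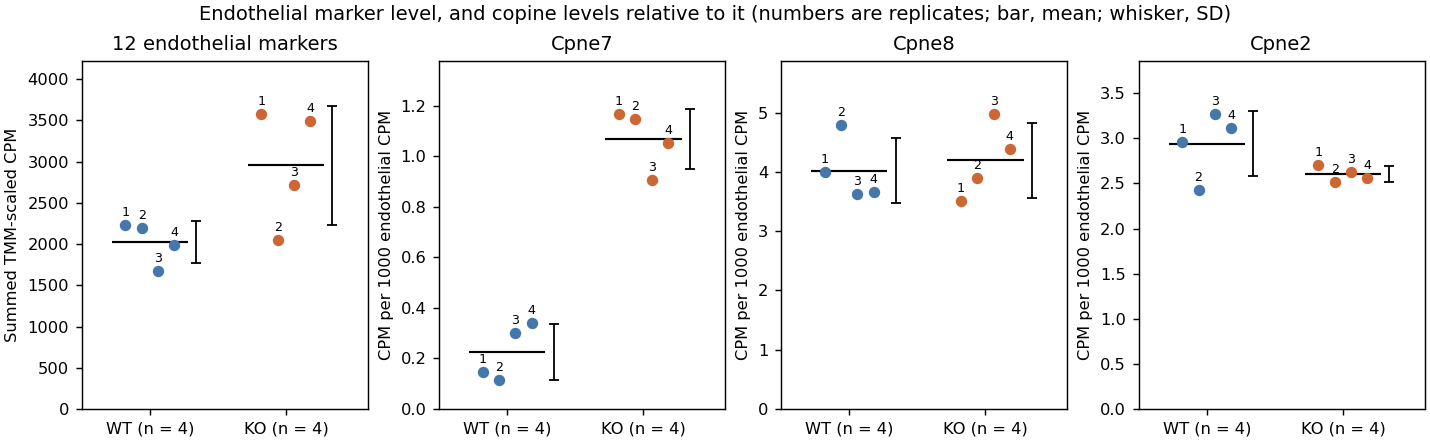
Left, the summed CPM of 12 endothelial markers in each library; right, Cpne7, Cpne8 and Cpne2 as CPM per 1000 CPM of those markers, with replicate numbers, the mean as a bar and the SD as a whisker (n = 4). On this scale the KO and WT points overlap for Cpne8 and Cpne2, and for Cpne7 all KO points are at or above 0.907 and all WT points at or under 0.340.

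The summed dendritic cell markers and the summed B and plasma cell markers lay higher in each KO library than in any WT library. Single markers overlapped. KO replicate 1 held 92.9 CPM of H2-Aa and 6.66 CPM of Jchain, under the 115.1 CPM of WT replicate 3 and the 10.5 CPM of WT replicate 2. Zbtb46, of the dendritic list, measured 124.4 CPM in KO replicate 1, 51.5 CPM in KO replicate 2 and 46.4 to 64.1 CPM in WT. The 10 dendritic cell and antigen presentation markers, all tested and all higher, summed to 321 to 416 CPM in WT and to 489 to 1470 CPM in KO, and the 8 B and plasma cell markers to 10.5 to 16.9 and to 19.4 to 40.6 CPM. KO replicate 2 held the most of both and the least Cpne7 of the KO libraries. Per 1000 CPM of dendritic cell markers Cpne7 measured 0.682 to 2.11 CPM in WT and 1.597 to 8.53 CPM in KO, with overlap, and per 1000 CPM of B and plasma cell markers it measured 14.9 to 64.6 and 57.7 to 216 CPM, also with overlap. Per 1000 CPM of T and NK cell markers it measured 6.81 to 146.7 CPM in WT and 10.3 to 177 CPM in KO, and the groups overlapped there too, KO replicate 2 being the lowest KO library and WT replicate 4 the highest WT library. Over all 15 marker lists the groups overlapped relative to 4, these 3 and the mesothelial and epithelial markers, which summed to 0.151 to 1.45 CPM. Relative to the other 11, each KO library lay above each WT library. Cpne7 was chosen for its difference between genotypes, which largely fixes this count, so nothing is read from it. Nerve was also covered, since several copines are neuronal. The 11 neuronal markers in the table summed to 5.50 to 9.34 CPM in WT and to 3.22 to 10.1 CPM in KO, and the 8 Schwann cell markers to 108 to 156 and to 134 to 224 CPM. The part of these cell types in the copine values was not tested.

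Genes whose levels ran most like those of Cpne7 were sought among 11390 genes whose mean log2 CPM was 1 or more, by Pearson's r of log2 CPM over the 8 libraries. The genotype gap in Cpne7 sets most of such an r, and the libraries share depth and composition, so it is a description. The 10 closest genes all had each KO library above each WT library. Adamtsl3, a matrix protein gene, came first (r = 0.98, and 0.81 after subtracting group means), with 5.31, 5.17, 5.66 and 6.15 CPM in WT and 11.6, 9.97, 9.60 and 9.64 CPM in KO. Srgn, the proteoglycan core of secretory granules in blood and endothelial cells, came second (r = 0.97), with means of 73.7 ± 2.96 and 117 ± 11.4 CPM in WT and KO (SD, n = 4). Tctn3, of the primary cilium transition zone, Dclk2, a doublecortin-like kinase, and Slco2b1, an organic anion transporter, followed (r = 0.97 each). The others of the 10 were Rad52, Stat6, Grrp1, Rfx1 and Slc39a10.

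Running against Cpne7 were Manea, Rap1gap, Anxa6, Ivd and Mccc2, each with every KO library below every WT library (r from -0.98 to -0.96). Ivd and Mccc2 are enzymes of leucine breakdown, and Rap1gap switches off the small GTPase Rap1, an activator of integrins. After group means were subtracted, Ccdc134 (r = 0.97), Loxl3, Agfg1, Zfp944 and Dubr (r = 0.91 to 0.92) were closest to Cpne7. The groups overlapped for each of these except Dubr. They were picked as the highest of 11390 genes, which by itself favours a high r. The WT deviations of Cpne7 rest on 8 to 27 counts, and its own mean log2 CPM, 0.27, lay under the limit set for the other genes. The order was not stable. Of the 10 closest genes, 3 were also among the 10 closest by Spearman's rho and 1 among the 10 closest with 6 libraries.

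Genes related to copines by domain or by reported binding were read from 5 lists, 92 tested genes in all. With all 8 libraries edgeR called 0 of them (0% of all genes called), and with 6 libraries 6 (3.32% of all genes called), among which Anxa6 fell and Anxa3, Dysf, Erbb2 and Rasa4 rose. DESeq2 called 8 of them with 8 libraries (8.71% of all genes called).

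Annexins are another large family that binds phospholipid when calcium rises. The list split evenly, 5 of 10 tested higher and 5 lower, where 50.5% of all tested genes had a log2 fold change above 0. Its median log2 fold change was -0.06 against 0.00 for all tested genes. Anxa6 measured 315, 345, 322 and 311 CPM in WT and 211, 204, 224 and 212 CPM in KO. Each KO library lay below each WT library, with a difference of -0.60 ± 0.10 on the log2 scale (SE). Its edgeR adjusted p was 0.0874, and 0.0363 with the 6 libraries. Anxa11 differed by -0.34 ± 0.16 (edgeR adjusted p = 0.241). With 6 libraries Anxa3 was also called, at 0.86 (adjusted p = 0.0361).

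Of 11 reported binding partners of copines, 8 were lower in KO and the median was -0.08. Erbb2, the receptor bound by copine 3, averaged 9.17 ± 0.564 CPM over WT libraries, and 13.7 ± 3.81 CPM over KO libraries (SD, n = 4). Its log2 fold change, 0.58 ± 0.21 (SE), had an edgeR adjusted p of 0.173, and of 0.0425 with 6 libraries. Ywhag, a 14-3-3 protein reported to bind copine 1, differed by -0.51 ± 0.21 (adjusted p = 0.209).

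Of 22 synaptotagmins, ferlins and similar membrane proteins with several C2 domains, 14 were higher in KO (median 0.18, and 0.06 with 6 libraries). Dysf, the membrane repair protein dysferlin, averaged 65.5 ± 6.84 CPM over WT libraries, and 111 ± 44.2 CPM over KO libraries (SD, n = 4). This difference of 0.76 ± 0.30 on the log2 scale (SE) had an edgeR adjusted p of 0.195, and of 0.0289 with 6 libraries. Sytl3 differed by 2.55 ± 1.05 (adjusted p = 0.211) and by 0.39 with 6 libraries, its KO mean being carried by 6.10 CPM in KO replicate 2.

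Of 27 enzymes and regulators with C2 domains, 18 were higher in KO (median 0.20). Wwp1, a ubiquitin ligase, averaged 69.2 ± 19.5 CPM over WT libraries, and 40.8 ± 4.75 CPM over KO libraries (SD, n = 4). The log2 difference of -0.76 ± 0.19 (SE) had an edgeR adjusted p of 0.103, and of 0.0520 with 6 libraries. Plcg2, a phospholipase of immune cells, had a log2 difference of 0.99 ± 0.27 (edgeR adjusted p = 0.122 with all libraries and 0.140 with 6) and was highest in KO replicate 2. Of 22 genes for proteins with a von Willebrand factor A domain, 12 were higher in KO (median 0.02, and 0.17 with 6 libraries). In that list Vwa8, a mitochondrial ATPase, differed by -0.50 ± 0.11 and Itga10, an integrin alpha chain that binds collagen, by 0.80 ± 0.17. Their edgeR adjusted p was 0.0981 each, and 0.0514 and 0.0670 with 6 libraries. The groups did not overlap for either gene. Nor did they overlap for Wwp1, lower in each KO library than in any WT library, and for Plcg2, higher in each. Among all tested genes 13.4% had groups that did not overlap.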

How the data were processed

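Per the labels' protocols, the 8 libraries hold polyadenylated RNA and mark strand by dUTP. The authors deposited whole-number counts per gene, 18395 genes by 8 libraries, which were used as deposited. The submitters' processing notes name GRCm39 as build. Aligner, counter and annotation: not given in the sources used here. Symbols came from GENCODE M21 names and were found for 18321 genes.

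The copine set, the lists and the alternatives were chosen with earlier results of these data known. KO was compared with WT on the whole table by edgeR 4.0.16 in R 4.3.3 (filterByExpr by group, TMM, robust quasi-likelihood F test, Benjamini-Hochberg threshold 0.05). SEs come from the fold change and the F statistic. DESeq2 1.42.0 and limma-voom 3.58.1 were alternatives. Of the 13901 genes tested with 8 libraries and the 13901 tested with 6, 13828 were in both. Log2 CPM used a prior count of 2. Lengths and coding sequences came from GENCODE M21 (GRCm38), aligned with Biopython 1.88; figures used matplotlib 3.10.9. The tests were tested on simulated data. Levels relative to marker lists were added after the data were seen.

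Named genes were all copines, Fermt2, the 10 genes most like Cpne7, the 5 least like it and the 5 most like it within groups, up to 5 counted genes on either side, genes overlapping a copine, and in each related list the 2 called genes, or else the 2 genes, with the smallest p. Klrb1c, Gzma, Ncr1, Dgkb and BB365896, and Anxa3 and Rasa4, were named after their values were seen. A further called gene of the related lists is not reported here. Same-numbered WT and KO libraries were checked for shared deviations.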

Additional observations from a re-analysis of the deposited data

Results flagged for a closer look

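In 14 of 130 groups of 4 libraries, 1 library lay far from the other 3 by Dixon's gap test, and chance alone flags about 1 in 20 groups. Of these, 8 were in KO replicate 2 and 3 in WT replicate 3. Among the copines the single case was Cpne4, at 0.0447 CPM in KO replicate 2 and 0 in the other KO libraries, which is 2 reads. Of the genes most or least like Cpne7, Stat6 reached 87.7 CPM in WT replicate 4 (78.4 to 79.2 CPM in the other WT libraries), Manea 10.4 CPM in KO replicate 1 (12.1 to 12.3) and Mccc2 68.6 CPM in KO replicate 3 (57.9 to 59.6). Near Cpne7, Cdh15, a cadherin of skeletal muscle, reached 8.003 CPM in WT replicate 3 and at most 0.101 CPM in the other WT libraries. In KO replicate 2, Plcg2 reached 6.35 CPM (3.16 to 3.66 CPM in the other KO libraries) and Sytl3 6.10 CPM (0.231 to 0.695).

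The remaining cases were summed marker lists. In WT replicate 3 skeletal muscle markers reached 41690 CPM and mural and smooth muscle markers 2719 CPM (990 to 1204 in the other WT libraries). Of that 2719 CPM, Des alone gave 1804 CPM, against 60.3 to 83.5 CPM in the other WT libraries. In KO replicate 2 skeletal muscle markers reached 284.6 CPM (33.6 to 54.2 in the other KO libraries), T and NK cell markers 227.4 CPM (23.6 to 43.7), Schwann cell markers 223.6 CPM (134 to 142) and mesothelial and epithelial markers 1.45 CPM (0.271 to 0.415). Mural and smooth muscle markers were low there, at 833.7 CPM against 1258 to 1341 CPM.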

How the results depend on the processing

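The log2 fold change of Cpne7 stayed within 1 SD of its value under all 17 alternatives (2.64 to 3.12), as did those of Cpne8, Cpne2 and Cpne9. That of Cpne3 turned to 0.11 with total library size only. The count of genes called by edgeR was 0 with all libraries and 0 with DESeq2 size factors. It was 882 with total library size only (858 higher and 24 lower, Cpne7 among them), 1 with no filter on low counts and 461 with 6 libraries (253 higher and 208 lower). DESeq2 called 1113. Leaving out 1 library at a time gave 0 to 361 calls, the 361 without KO replicate 2 and including Cpne7. No copine other than Cpne7 was called under any of the 17 alternatives. Among genes related to copines the 0 called became 4 with total library size only, 8 by DESeq2, 6 with 6 libraries and 0 to 6 with 1 library left out. The cause of these shifts was not tested. Cpne7 was the fourth copine per kilobase in KO with coding length and with 6 libraries too. WT and KO share replicate numbers, but same-numbered libraries deviated together with correlations of -0.13 to 0.22, so the numbers were not taken as pairs; with a replicate block edgeR called 0 genes and Cpne7 was not called. Cpne7 rested on 61 reads over the WT libraries, which limits the precision of its ratio.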
